A study of Mus musculus with 24 samples.

Results

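Wnt4 encodes a secreted signalling protein of the Wnt family. In the embryonic kidney it turns mesenchyme into the epithelium of new nephrons, and it is known to be switched on again in injured adult kidney. Wnt ligands bind Frizzled receptors on neighbouring cells and act there through β-catenin or other routes. Sox9 is a DNA-binding factor of tubule progenitors that reappears in tubules after injury. H3K4me3 is a histone mark found at the start of active genes. Where both lie around Wnt4 in injured kidney was read from peak lists of CUT&RUN, an assay in which an antibody directs a nuclease to cut out the DNA beside its target.

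The Wnt4 locus was taken as the gene (mm10 chr4:137277635-137299501, 21867 bp, forward strand) with 100000 bp on each side, a window of 221867 bp. Its members were all peaks with their summit there, 109 of 576322 on chromosomes 1 to 19, X and Y. Of these, 40 of 224322 came from Sox9 lists and 69 of 352000 from H3K4me3 lists. The window holds only 2 protein-coding genes. The other is Cdc42 (mm10 chr4:137319696-137357759, reverse strand), which encodes a small GTPase of the cytoskeleton and cell polarity. The lncRNA Gm31820 (mm10 chr4:137184081-137252761) fills much of the upstream side. The lncRNAs Gm46872 and Gm52681 and the pseudogenes Gm13005 and Rpl31-ps10 also lie there.

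The cells were tdTomato-positive cells sorted from the cortex and outer medulla of male Sox9IRES-CreERT2/+:R26RtdT/+ mice, 9 to 12 weeks old. All had bilateral renal ischaemia-reperfusion injury and tamoxifen at its induction, so that cells with an active Sox9 locus around that time, and their descendants, were marked. There were 4 biological replicates 10 days and 4 replicates 48 h after injury. Uninjured animals were not analysed here. Each fixed pellet was divided between a Sox9 antibody, an H3K4me3 antibody that served as positive control, and an input, so that a replicate number within a time names a pellet. The times were read from sample titles, because day 10 stands in the cell type label even of the samples titled 48h. The 16 antibody lists were used, and the 8 inputs were not analysed here as samples. A peak reports material from a mixed pellet, so a mark in fewer cells and less of it per cell cannot be told apart.

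The lists held 7724 to 88511 peaks, with a median length of 122 to 163 bp. Read depth is unknown. In every list the peak height, solved from the authors' fold and significance, was a whole multiple of 1 step for 99.6% to 100% of peaks, within 0.05 of a step. Between 92.5% and 97.8% of a list stood at exactly 1 step, the lowest height it contains. H3K4me3 peaks at the ends of marker genes were also sparse. Of pairs of gene and library, 16.1% had one for 14 tubule genes, 6.25% for 6 immune genes, 12.5% for 4 endothelial genes, 10% for 5 stromal genes and 25% for 3 podocyte genes, against 17.3% over all protein-coding genes. H3K4me3 at these markers did not set tubule genes above all genes.

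The 300 bases around the start of Wnt4 are shown because Sox9 peaks of 1 library at each time cover most of them. The sequence is the RefSeq promoter of GRCm38.p6, chr4:137277385-137277684, forward strand, from 250 bases before to 50 bases after the start. Capitals mark bases inside a Sox9 peak, 266 of 300 in all.
Wnt4: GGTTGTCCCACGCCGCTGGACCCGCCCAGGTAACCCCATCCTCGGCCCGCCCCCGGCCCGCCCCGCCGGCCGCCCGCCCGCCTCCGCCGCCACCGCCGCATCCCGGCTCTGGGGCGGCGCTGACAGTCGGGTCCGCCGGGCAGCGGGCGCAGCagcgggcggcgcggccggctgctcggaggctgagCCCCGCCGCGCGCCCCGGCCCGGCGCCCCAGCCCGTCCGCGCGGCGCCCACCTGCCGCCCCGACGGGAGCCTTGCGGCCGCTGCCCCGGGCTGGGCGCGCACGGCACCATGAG
The promoter of Cdc42, the neighbour that also had peaks of both antibodies at its start, is given for comparison (GRCm38.p6 chr4:137357710-137358009, reverse strand, the same span and the same use of capitals).
Cdc42: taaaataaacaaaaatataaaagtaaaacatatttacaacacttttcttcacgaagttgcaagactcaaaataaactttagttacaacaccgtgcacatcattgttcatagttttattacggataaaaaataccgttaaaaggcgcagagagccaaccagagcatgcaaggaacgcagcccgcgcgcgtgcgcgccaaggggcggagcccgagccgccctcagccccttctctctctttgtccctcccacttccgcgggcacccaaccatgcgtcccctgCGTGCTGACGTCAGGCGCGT

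The Wnt4 promoter was 84.3% G and C and held 51 CpG pairs, as many as or more than all but 0.715% of the 32851 promoters in the table, whose median was 7. The Cdc42 promoter was 49.3% G and C with 22 CpG pairs, a number reached by 23.1% of promoters. Letters that Sox proteins are known to bind were searched on both strands as ACAAT and as ACAAAG, which share their first 4 letters. The Wnt4 window held neither, while 42.9% of all promoters held at least 1 of them (31.0% ACAAT, 18.7% ACAAAG). The Cdc42 window held 1 of each. These matches describe letters and say nothing of binding.

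At the start of Wnt4, within 1000 bp, the lists held 3 Sox9 peaks and 4 H3K4me3 peaks, from 5 of the 16 libraries. The Sox9 peak of 10d replicate 1 (mm10 chr4:137277572-137277711) had its summit 2 bp before the start. Sox9 peaks of 48h replicate 3 lay on both sides of the start, at chr4:137277257-137277537 with the summit 225 bp before it and at chr4:137277917-137278053 with the summit 360 bp after it. The last of these was the only Sox9 peak of the window at 2 steps, among 3.36% of Sox9 peaks that reached 2 steps or more anywhere. The Sox9 lists of the other 6 libraries had none there.

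H3K4me3 at the start came from 10d replicate 1, with summits 605 bp before and 963 bp after it, from 10d replicate 4, 695 bp before it, and from 48h replicate 1, 295 bp before it. All 4 were at 1 step. The pellets with Sox9 at the start were thus 10d replicate 1 and 48h replicate 3, and of these only 10d replicate 1 also had H3K4me3 there. In that pellet the peaks of the 2 antibodies did not touch. The H3K4me3 peak of 48h replicate 1 (chr4:137277271-137277404) lay inside the Sox9 peak of 48h replicate 3, in another pellet.

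The 3′ end of Wnt4 had a single peak within 1000 bp, from Sox9 in 10d replicate 4 (chr4:137299866-137300054), with its summit 457 bp past the end. H3K4me3 had no peak there in its 8 lists. Counting both ends, Sox9 was present in 3 of 8 libraries (2 of 4 at 10d and 1 of 4 at 48h), and 6.32% of 21883 protein-coding genes had 3 or more. H3K4me3 was also present in 3 of 8 (2 of 4 at 10d and 1 of 4 at 48h), and 19.4% of genes had 3 or more. At least 3 libraries of each antibody were found at 2.95% of genes. At 2 steps or more the counts were 1 of 8 for Sox9 and 0 of 8 for H3K4me3. Within 500 bp of an end they were 3 of 8 for Sox9 and 1 of 8 for H3K4me3, and within 3000 bp they were 5 of 8 and 4 of 8.

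**Figure D1:**
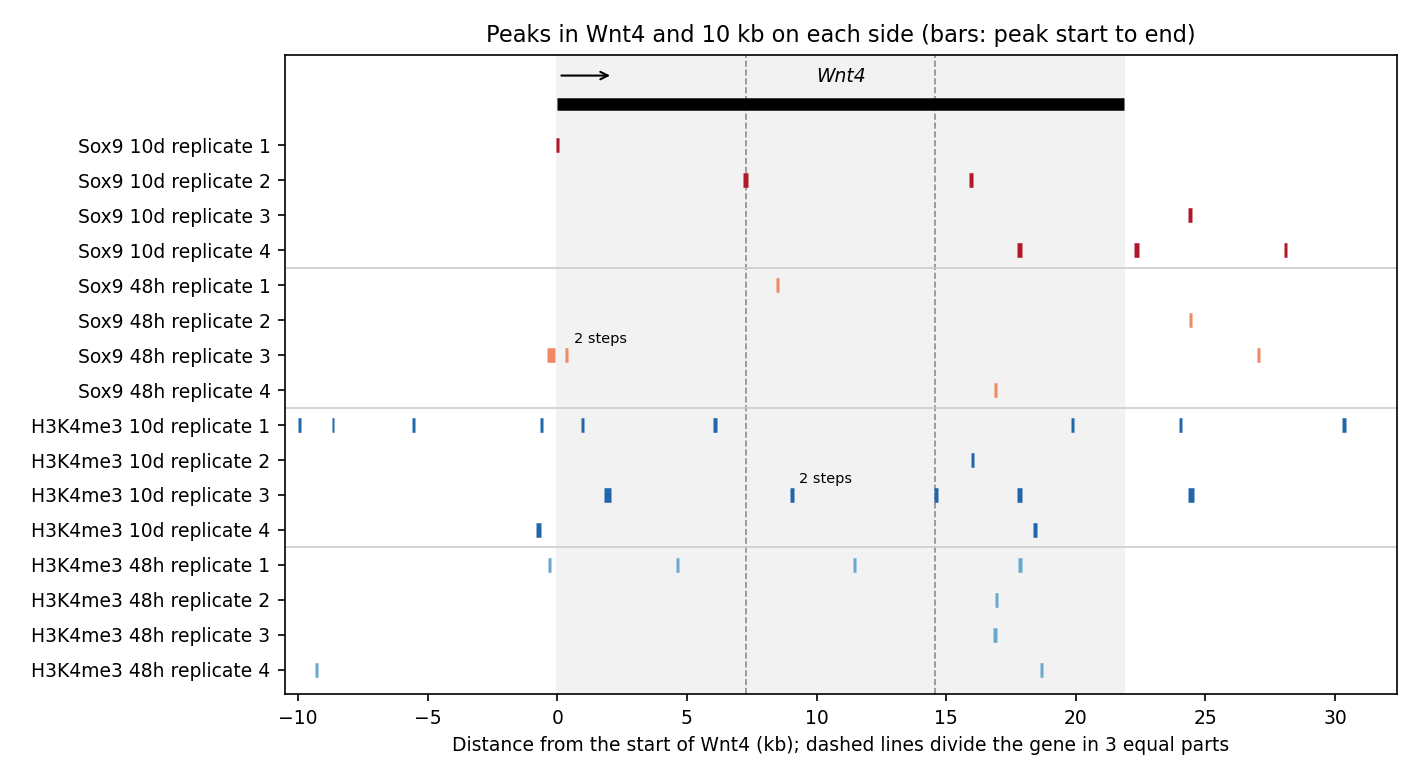
Peaks in Wnt4 and 10 kb on each side. The horizontal axis is the distance from the start of the gene in kb, each row is a library, each bar runs from the start to the end of a peak, and dashed lines divide the gene body in 3 equal parts. H3K4me3 peaks stand in the last part of the gene in all 8 rows of that antibody. Within 1000 bp of the start of the gene there are peaks in 2 Sox9 and 3 H3K4me3 rows.

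The inside of the gene, more than 1000 bp from both ends, held peaks in more libraries than the start. It spans 19865 bp against 2001 bp there, and per 10 kb it had fewer summits of both antibodies together (9.56 against 35.0). Sox9 had 5 peaks inside, 2 in 10d replicate 2 and 1 each in 10d replicate 4, 48h replicate 1 and 48h replicate 4. The whole gene body had Sox9 in 5 of 8 libraries, and 17.5% of genes had 5 or more. H3K4me3 had 14 peaks inside, in 8 of 8 libraries, with 4 in 10d replicate 3, 3 in 48h replicate 1, 2 in 10d replicate 1 and 1 in each of the other 5. Counting the whole gene body, 8.06% of protein-coding genes had H3K4me3 in 8 of 8 libraries.

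The gene body was divided in 3 equal parts of 7289 bp. The last part held 3 Sox9 peaks in 3 of 8 libraries and 9 H3K4me3 peaks in 8 of 8. The first part held 2 Sox9 and 4 H3K4me3 peaks, and the middle part 1 and 2. A part with H3K4me3 in all 8 libraries, among 3 equal parts of the gene, was found in 2.65% of protein-coding genes, which had a median length of 327698 bp, against 17170 bp for all genes. Among the 12368 genes no longer than Wnt4, 7 had such a part, Wnt4 included. A part with both H3K4me3 in 8 of 8 and Sox9 in 3 or more libraries was found in 2.56% of all genes. The parts were looked at after their values were seen, and the table used here gives no exons, so whether these peaks lie in introns was not determined.

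Merging peaks of both antibodies across gaps of up to 1000 bp, a distance also chosen after the values were seen, gave a cluster of 2846 bp in the last part of the gene (mm10 chr4:137293512-137296357). It held 1 peak from each of 10 libraries. Sox9 contributed 10d replicates 2 and 4 and 48h replicate 4, and H3K4me3 every library other than 10d replicate 1, whose peak lay further on at chr4:137297449-137297580. The cluster thus had 5 libraries of each time. Of 394400 clusters in the genome, 0.09% held 10 or more libraries and 0.0621% held 7 or more H3K4me3 libraries. These shares count every cluster, and in the window 36 of 58 held only 1 library. The cluster was also picked as that with the most libraries in the window, so the shares do not measure how unusual the locus is.

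The peaks of the cluster did not share 1 position. With overlapping peaks only, no site in it had more than 2 H3K4me3 libraries, and with gaps of up to 500 bp the largest group had 4. The first site (chr4:137293512-137293699) paired Sox9 and H3K4me3 of 1 pellet, 10d replicate 2. The second (chr4:137294440-137294637) had Sox9 of 48h replicate 4 and H3K4me3 of 48h replicates 2 and 3. The third (chr4:137295376-137295574) had Sox9 of 10d replicate 4 with H3K4me3 of 10d replicate 3 and 48h replicate 1. Single H3K4me3 peaks of 10d replicate 4 (chr4:137295992-137296133) and 48h replicate 4 (chr4:137296244-137296357) followed. All were at 1 step.

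The other cluster of many libraries spanned the start (chr4:137276823-137279703, 2881 bp). It held 8 peaks from 6 libraries, 2 of Sox9 and 4 of H3K4me3. No other cluster of the window had more than 4 libraries.

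**Figure D2:**
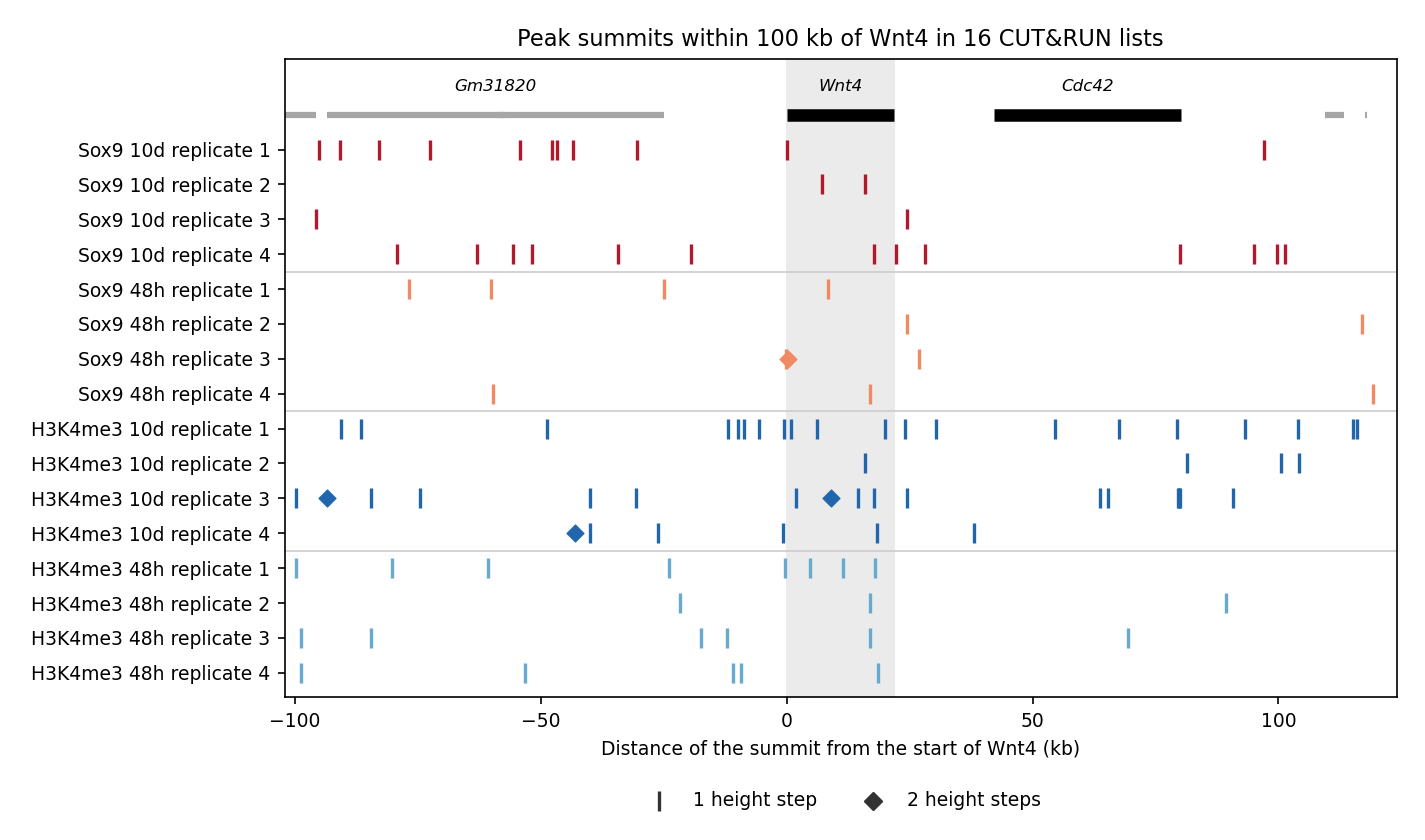
Summits of all 109 peaks within 100 kb of Wnt4. The horizontal axis is the distance from the start of Wnt4 in kb, each row is a library, ticks are 1-step peaks and diamonds are the 4 peaks at 2 steps; genes are drawn above, protein-coding in black and others in grey. Rows differ in their number of ticks, between 2 and 20. The last part of Wnt4 has ticks in 11 rows, spread over several positions that this scale does not resolve.

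The gene with 10000 bp on each side makes up 18.9% of the window and held 13 of 40 Sox9 peaks (32.5%) and 25 of 69 H3K4me3 peaks (36.2%). Per 10 kb and over all libraries, Sox9 and H3K4me3 together had 35.0 summits at the start, 9.56 inside the gene, 5.00 at the 3′ end and 4.91 in the window as a whole. On the flanks they had 4.44 between 1000 and 10000 bp upstream and 7.78 over the same span downstream, then 5.00 further upstream and 2.89 further downstream. Sox9 alone had 2.22 far upstream, near its 2.52 inside the gene, and 0.778 far downstream. These densities pool the lists without scaling to their length. Far upstream, 9 Sox9 peaks came from 10d replicate 1 and 6 from 10d replicate 4, the longest Sox9 lists. The list of 10d replicate 1 had none inside the gene. Upstream by more than 10000 bp there were 20 Sox9 and 25 H3K4me3 peaks, and downstream by more than 10000 bp 7 and 19. Between 1000 and 10000 bp upstream there were no Sox9 peaks and 4 of H3K4me3, 3 of them from 10d replicate 1 and 1 from 48h replicate 4. On the downstream side of the same span there were 4 Sox9 peaks, from 4 libraries, and 3 of H3K4me3, all at 10d.

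Every one of the 16 libraries had a peak within the gene and 10000 bp, as in 2.83% of protein-coding genes. Taken by antibody, 3.48% of genes had Sox9 there in 8 of 8 libraries and 12.8% had H3K4me3 in 8 of 8. This window widens with gene length, so summits were also scaled to 10000 listed peaks and 100 kb. On that scale the gene with 10000 bp averaged 2.07 ± 1.40 for Sox9 and 1.59 ± 0.913 for H3K4me3 (SD, n = 8 each), against a median over genes of 0.468 and 0.502. The Wnt4 values were at or above those of 98.5% and 97.2% of genes. With 100000 bp on each side they were 0.939 for Sox9 and 0.837 for H3K4me3, at or above 89.7% and 85.7% of genes. Peaks in all 8 lists within 100000 bp were common, in 35.4% of genes for Sox9 and 74.7% for H3K4me3.

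Few positions recurred between libraries of 1 antibody. The 40 Sox9 peaks made 39 separate regions when overlapping peaks were merged, and only 1 of them (2.56%, against 3.27% of all Sox9 regions) had 2 libraries. It lay past the 3′ end (chr4:137301942-137302119), with summits 2538 bp past it in 10d replicate 3 and 2542 bp past it in 48h replicate 2. H3K4me3 of 10d replicate 3 had its summit 2587 bp past the end and overlapped both, so that 1 pellet had both antibodies at the site.

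The 69 H3K4me3 peaks made 60 regions, of which 9 (15.0%, against 5.24% of all H3K4me3 regions) had 2 libraries and none more. The share rests partly on single lists, since 4 such regions were left without 10d replicate 3 and 5 without 48h replicate 3. Besides the second and the third site of the cluster, they lay just before the start (chr4:137276823-137277087, 10d replicates 1 and 4) and at the start of Cdc42 (chr4:137357022-137357266, 10d replicates 1 and 3). The other 5 lay upstream, at chr4:137177746-137177946, chr4:137178775-137179089, chr4:137193017-137193297, chr4:137237551-137237720 and chr4:137265499-137265730. Of all 9 regions, 4 had a library of each time, 3 had 10d libraries only and 2 had 48h libraries only. H3K4me3 peaks were denser in the window than over the chromosomes (mean ratio 2.23), and the part of this density in the recurrence was not tested.

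H3K4me3 had 3 peaks of 2 steps among its 69 in the window, beside a share of 4.68% at 2 steps or more over all H3K4me3 peaks. In 10d replicate 3 they lay inside Wnt4, 9079 bp from the start (chr4:137286615-137286747), and over the left end of Gm31820 (chr4:137184034-137184180). The other was in 10d replicate 4 within Gm31820 (chr4:137234474-137234603). No region with a 2-step peak had a second library.

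Sox9 and H3K4me3 peaks of the same pellet overlapped at 2 places in the window, which is 5% of its Sox9 peaks (2.67% over all Sox9 peaks) and 2.90% of its H3K4me3 peaks (1.71% over all). These were the first site of the cluster in 10d replicate 2 and the site past the 3′ end in 10d replicate 3. The same 2 places met the stricter rules of 50% of the Sox9 peak covered or summits within 200 bp. Across pellets, 8 of 40 Sox9 peaks (20%, against 12.0% over all) overlapped an H3K4me3 peak, and 9 of 69 H3K4me3 peaks (13.0%, against 8.53%) overlapped a Sox9 peak. Of the 8, 3 lay inside Wnt4, 1 at its start, 2 past its 3′ end, 1 at the start of Cdc42 and 1 upstream in Gm31820. The window held on average 2.50 times the Sox9 peaks and 2.23 times the H3K4me3 peaks of an even spread over the chromosomes. The part of this density in the overlaps was not tested.

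Among 1-step peaks of a list the height is the same, so the authors' fold differs only with the local background and a low fold marks a high background. The 1-step peaks at the start of Wnt4 ranked low. Their median was at percentile 2.59 of the 1-step peaks of their own list, with a range of 1.02 to 20.0. The solved background there was 14.3% of 1 step for Sox9 in 10d replicate 1 and 5.88% in 48h replicate 3. For H3K4me3 it was 10.4% and 3.64% in 10d replicate 1, 5.94% in 10d replicate 4 and 23.4% in 48h replicate 1. Inside the gene the median percentile was 19.8, more than 10000 bp upstream 29.1 and more than 10000 bp downstream 50.5. At the start of Cdc42 the 4 H3K4me3 peaks, in 10d replicates 1 and 3, ranked between percentiles 0.619 and 2.34. The 1-step peaks at both gene starts thus stood on a background higher than at most 1-step peaks of their lists. The part of that background in the presence of these peaks was not tested.

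**Figure D3:**
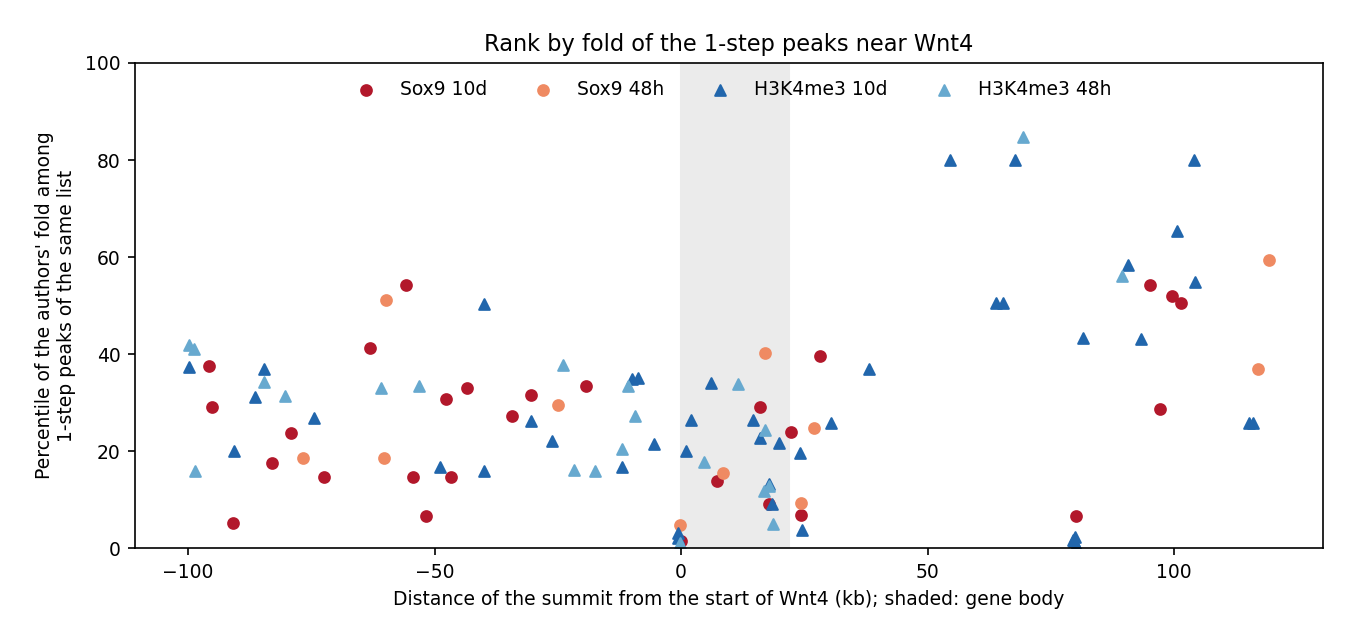
Rank of the authors' fold for each 1-step peak of the window among all 1-step peaks of its own list, as a percentile, against the distance of its summit from the start of Wnt4 in kb; the shaded band is the gene body. Points drop to between 1.02 and 4.76 at the start of Wnt4, with 1 at 20.0, and to between 0.619 and 6.59 at the start of Cdc42 on the right.

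The comparison of times asked whether peaks around Wnt4 were more numerous 10 days than 48 h after injury. For Sox9, the window held 11, 2, 2 and 13 peaks in 10d replicates 1 to 4, against 4, 2, 3 and 3 in 48h replicates 1 to 4. The 10d lists fell apart in 2 rich and 2 poor ones, and the poor ones had no more peaks than the 48h lists. The means were 7 ± 5.83 peaks at 10d and 3 ± 0.816 at 48h (SD, n = 4 each), a difference of 4 (two-sided exact permutation p = 0.429). Without 10d replicate 4 the difference was 2. The 10d lists were also longer on the whole, and the 2 rich lists were the longest of the 8 (85415 and 39691 peaks on these chromosomes, against 7706 to 26520 in the other 6).

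Scaled to list length, the Sox9 values were 1.29, 1.35, 1.15 and 3.28 summits per 10000 listed peaks in 10d replicates 1 to 4, against 5.19, 0.754, 1.88 and 1.78 in 48h replicates 1 to 4. The highest value belonged to the shortest list, where 4 peaks gave an exact 95% interval of 1.41 to 13.3, which covers counting error only. The means were 1.77 ± 1.01 at 10d and 2.40 ± 1.93 at 48h (SD, n = 4 each), a difference of -0.63 (exact permutation p = 0.6). Without 48h replicate 1 the difference was 0.295. The direction of the Sox9 difference therefore changed with the scaling and with that library. The scaled difference was smaller than the SD of either time. The difference in counts was smaller than the SD at 10d but larger than that at 48h.

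For H3K4me3 the window held 20, 4, 17 and 6 peaks in 10d replicates 1 to 4, against 8, 3, 6 and 5 in 48h replicates 1 to 4. Again 2 of the 10d lists were rich and the others overlapped the 48h range. The means were 11.8 ± 7.93 peaks at 10d and 5.50 ± 2.08 at 48h (SD, n = 4 each), a difference of 6.25 (exact permutation p = 0.286). Without 10d replicate 1 the difference was 3.5. Per 10000 listed peaks the values were 2.26, 1.29, 2.29 and 1.85 at 10d, against 2.71, 0.901, 1.61 and 1.94 at 48h. These ranges overlapped almost fully, with means of 1.92 ± 0.464 at 10d and 1.79 ± 0.751 at 48h (SD, n = 4 each) and a difference of 0.133 (exact permutation p = 0.8). Without 48h replicate 2 it was -0.164. Complete separation of the times on this scale was seen for 1.44% of genes with 10d higher and 1.37% with 10d lower for Sox9, and for 1.57% and 1.23% for H3K4me3, and Wnt4 was not among them.

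**Figure D4:**
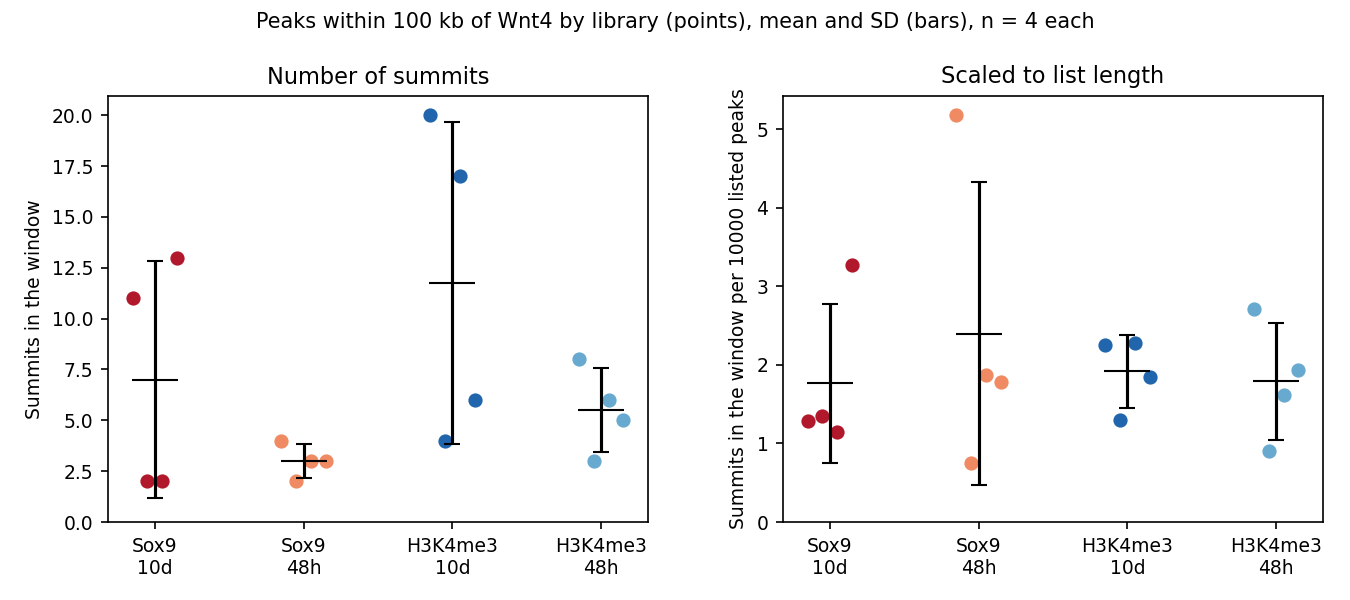
Summits within 100 kb of Wnt4 in each library, as counts (left) and per 10000 listed peaks (right), with the mean and SD of 4 replicates. The 10d counts spread from 2 to 13 for Sox9 and from 4 to 20 for H3K4me3, wider than at 48h, and after scaling the 10d and 48h libraries of each antibody overlap.

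Within the gene and 10000 bp, Sox9 had 1, 2, 1 and 3 peaks in 10d replicates 1 to 4, against 1, 1, 3 and 1 in 48h replicates 1 to 4. H3K4me3 had 9, 1, 5 and 2 at 10d, against 4, 1, 1 and 2 at 48h. The mean differences were 0.25 peaks for Sox9 (exact permutation p = 1.00, n = 4 each) and 2.25 for H3K4me3 (p = 0.371). Without 10d replicate 1 the H3K4me3 difference was 0.667, and without 10d replicate 4 the Sox9 difference was -0.167. Per 10000 listed peaks, Sox9 averaged 0.700 ± 0.511 at 10d and 1.04 ± 0.685 at 48h (SD, n = 4 each, exact permutation p = 0.457). H3K4me3 averaged 0.658 ± 0.284 at 10d and 0.675 ± 0.509 at 48h (SD, n = 4 each, exact permutation p = 0.971). After Benjamini-Hochberg adjustment over 10 tests, all adjusted exact permutation p-values lay between 0.857 and 1.00. The smallest p that 4 against 4 libraries allow is 0.0286, so before adjustment only a complete separation of the times could have passed 0.05. After adjustment over 10 tests, 1 such result alone could not have passed, so these tests had little power to call a difference.

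The antibodies were compared within pellets. Sox9 averaged 2.08 ± 1.46 summits per 10000 listed peaks in the window and H3K4me3 1.86 ± 0.582 (SD, n = 8 each). The mean difference of 0.227 was positive in 4 of 8 pellets (two-sided exact sign-flip permutation p = 0.570). Within the gene and 10000 bp, Sox9 averaged 0.868 ± 0.588 and H3K4me3 0.666 ± 0.382 (SD, n = 8 each), with 4 of 8 pellets in the direction of the mean (exact permutation p = 0.5). The difference between antibodies in the window was -0.157 at 10d and 0.611 at 48h, which did not differ beyond the spread (exact permutation p = 0.486, n = 4 each). Set against an even spread of each list over the chromosomes, the window held more peaks than the list average in 7 of 8 Sox9 lists and 8 of 8 H3K4me3 lists. The ratio ranged from 0.905 to 6.23 for Sox9 and from 1.08 to 3.25 for H3K4me3. An even spread also covers stretches without genes, and how many other genes exceed it was not counted. Beside other genes with 100000 bp on each side, Wnt4 was at or above 89.7% for Sox9 and 85.7% for H3K4me3.

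Of the 19 Wnt ligand genes, 17 had a Sox9 peak within 1000 bp of an end in at least 1 library, against 51.5% of all protein-coding genes, and 17 had H3K4me3 there, against 68.3%. Pairs of ligand gene and library with a Sox9 peak made up 18.4%, against 9.98% over all protein-coding genes, and those with H3K4me3 25%, against 17.3%. Wnt4, Wnt1, the founding ligand of the family, and Wnt7a reached 3 of 8 Sox9 libraries, the most of any ligand. For H3K4me3 the most was 4 of 8, at Wnt7b, Wnt9a and Wnt10a, a number reached by 7.53% of all genes. These lists were made with earlier results of the data known and carry no test.

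Ordered by summits per 10000 listed peaks and 100 kb in the gene and 10000 bp, Wnt4 came first of 19 for both antibodies. For Sox9 it was followed by Wnt10b at 1.85 ± 1.75, Wnt7b at 1.68 ± 1.19, Wnt10a at 1.47 ± 1.70 and Wnt1 at 1.37 ± 1.32 (SD, n = 8 each). For H3K4me3 the next were Wnt1 at 1.52 ± 0.770, Wnt7b at 1.48 ± 0.905, Wnt10a at 1.47 ± 1.14 and Wnt8b at 1.28 ± 0.641 (SD, n = 8 each). Each of these lay within 1 SD of the Wnt4 mean. All ligands share the same 8 libraries of an antibody, and their differences within libraries were not tested, so the order among the leading ligands is only a description. At the low end stood Wnt8a for Sox9, at 0.122 ± 0.346, and Wnt2 for H3K4me3, at 0.267 ± 0.362 (SD, n = 8 each). The median ligand had 1.05 for Sox9 and 0.889 for H3K4me3, and 17 of 19 lay above the median of all genes for each antibody. The ligands are not all separate loci. The windows of Wnt1 and Wnt10b, Wnt6 and Wnt10a, Wnt3 and Wnt9b, and Wnt3a and Wnt9a overlap, so a summit could count for more than 1 ligand. Within the gene and 10000 bp, peaks in all 8 Sox9 lists were found at Wnt4 alone among the 19 ligands, beside 3.48% of all protein-coding genes. All 8 H3K4me3 lists had peaks in that span at Wnt3a, Wnt4, Wnt5b, Wnt8b and Wnt9b, beside 12.8% of all protein-coding genes.

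**Figure D5:**
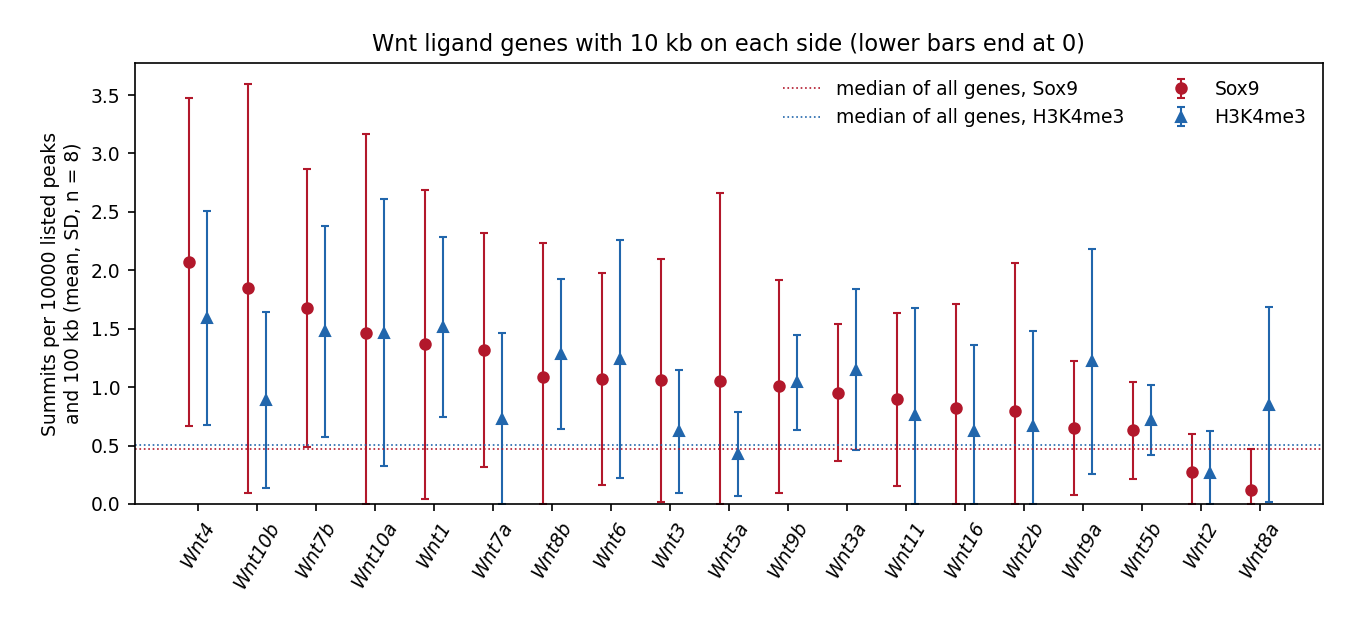
Summits within each Wnt ligand gene and 10 kb on each side, per 10000 listed peaks and 100 kb, as mean and SD over 8 libraries of each antibody, in the order of the Sox9 means; dotted lines are the medians over all protein-coding genes. Wnt4 has the highest mean for both antibodies, 2.07 for Sox9 and 1.59 for H3K4me3, and its error bars overlap those of the ligands next to it.

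Among 10 genes of nephron formation, the setting in which Wnt4 acts, 6 had a Sox9 peak at an end in some library and 10 had H3K4me3, beside the same shares of all genes (51.5% and 68.3%), so the Sox9 count was near that of all genes. Fzd4 and Fzd8, which encode Frizzled receptors for Wnt ligands, had each antibody in 4 of 8 libraries, where 1.58% of all genes had 4 or more for Sox9 and 7.53% for H3K4me3. Wt1 and Sall1, which encode zinc-finger factors of nephron progenitors, had H3K4me3 in 4 of 8. Over the list, 20% of pairs of gene and library had Sox9, against 9.98% over all genes, and 30% had H3K4me3, against 17.3%.

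The pattern over libraries at the ends of Wnt4, a peak in 6 of 16, was compared with all other protein-coding genes by the Jaccard index, the number of shared libraries over the number in either gene. Slc39a7 was most like it, with 6 shared of 7 libraries (0.857). Syk and Rbm39 followed with 5 of 6 each (0.833). In all, 5 genes had an index at least as high as these. They were picked as the closest of all protein-coding genes on patterns of few peaks, and their likeness to Wnt4 was not tested. At the start of Cdc42 within the window, Sox9 was present in 1 library (10d replicate 4) and H3K4me3 in 2 (10d replicates 1 and 3), all at 10d, and neither antibody had a peak at its 3′ end. Peaks in the Cdc42 gene and 10000 bp came from 1 of 8 Sox9 libraries and 6 of 8 H3K4me3 libraries.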

How the data were processed

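CUT&RUN peak lists of 8 Sox9 and 8 H3K4me3 libraries were used. The submitters' processing notes name mm10, MACS3, Bowtie, Bowtie2 and Partek 10, and per the peak names each library was called against the input of its own pellet. For peak thresholds, duplicate handling and read depth, nothing is stated (not given in the sources used here). The fold is a ratio of pileup over local background deposited by the authors. The p-values and q-values were deposited by the authors as −log10 values. The deposited score was not used. Fold and significance were used only within a list. Solving a Poisson tail and a fold with 1 added to both terms gave pileup and background, and thereby height steps.

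Summits on chromosomes 1 to 19, X and Y were counted. Genes (21883 protein-coding) and promoters came from RefSeq tables of GRCm38.p6, the assembly of mm10. Regions were merged peaks sharing at least 1 bp. The tests were a two-sided exact permutation of 4 against 4 lists for times and exact sign flips over 8 pellets for antibodies. Named were Wnt4, the window's genes, Wnt ligands and nephron genes with end peaks in at least 4 libraries or singled out by their values, and 3 genes by Jaccard index. The members, the lists and the tests were chosen with earlier results of these data known. Alternatives were 2 steps or more, −log10 q of at least 5, other flanks and end distances, 200 bp gaps, stricter overlap, a replicate block and leaving out replicates.

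Sox9 and H3K4me3 lists of 1 pellet were paired on the labels' protocols. In peaks at gene ends, with 0.5 added to counts, their deviations correlated between -0.000241 and 0.0107 at 10d and between -0.00728 and -0.00345 at 48h, and 1 of 8 pellets was matched best by its own partner. No 2 of the 120 pairs of lists shared more than 13 identical peaks. Step numbers were recovered on peaks simulated with the same fold and Poisson formulas, which does not check that the deposited lists follow them. Planted window counts were recovered on simulated positions. Software was Numba 0.67.0, SciPy 1.17.1, pandas 2.3.3, NumPy 2.4.6, Matplotlib 3.10.9 and Python 3.11.15.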

Additional observations from a re-analysis of the deposited data

Results flagged for a closer look

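Of 16 groups of 4 libraries examined for a library far from the others, 2 had one. The nominal rate of about 1 in 20 does not hold for small tied counts. The groups also score the same libraries on related measures, so the 2 flags cannot be set against chance. The Sox9 list of 10d replicate 4 had 3.28 window summits per 10000 listed peaks, while 10d replicates 1 to 3 had 1.29, 1.35 and 1.15. Its 13 peaks lay on both sides of the gene, 6 of them upstream by more than 10000 bp. The Sox9 list of 48h replicate 3 had 3 summits within the gene and 10000 bp, while the other 48h lists had 1 each. Of these 3, 2 lay at the start of Wnt4, and 1 of those was the only Sox9 peak of the window at 2 steps.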

How the results depend on the processing

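None of 130 alternatives of the 10 tests had an exact permutation p under 0.05 (range 0.125 to 1.00). Leaving out 1 replicate left 3 against 4 lists in the time tests, where the smallest possible p is 0.0571. Those alternatives could not have passed, so their p-values say nothing of robustness. Of the 130, 119 kept the direction and 11 reversed it. With peaks of 2 steps or more, of which the window has 4, the Sox9 difference between times was -0.25 peaks in the window and -0.25 in the gene with 10000 bp, and the H3K4me3 share there was 0.690 higher at 10d. With 50000 bp on each side, the Sox9 minus H3K4me3 share was -0.0214. Leaving out replicates gave -1.18 to 0.295 for the Sox9 and -0.164 to 0.439 for the H3K4me3 window share between times, and -0.153 to 0.210 for the H3K4me3 share and -0.167 to 0.75 for the Sox9 count in the gene with 10000 bp. Without single pellets the Sox9 minus H3K4me3 window share ran from -0.0948 to 0.422, the lowest without 48h replicate 1. Replicate numbers of the 2 times name different pellets, and as a replicate block they gave p-values of 0.75 for both window shares, 0.5 and 0.125 for the window counts of Sox9 and H3K4me3 (exact sign-flip permutation, 4 pairs, smallest possible p 0.125). With no replicate block the antibody comparison had exact permutation p = 0.739 in the window and 0.428 near the gene; no call changed.

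The number of libraries with a peak at an end of Wnt4 was 5 for Sox9 within 3000 bp and 1 at 2 steps; for H3K4me3 it was 1 within 500 bp and 0 at 2 steps. Leaving out replicates gave 2 to 3 for each. Sox9 regions in 2 libraries numbered 2 with 200 bp gaps and 0 to 1 without single replicates, H3K4me3 regions 4 to 9. Overlaps of Sox9 with H3K4me3 were 8 over any pellet, and 1 to 2 without single replicates. The cluster in the last part of the gene held 2 H3K4me3 libraries with gaps of 0 or 200 bp, 4 with 500 bp and 8 with 1200 bp, distances added after the data were seen, and 6 to 7 without single replicates. Depth is unknown, and counts of 1 to 20 peaks per list limit what can be detected.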
